A study of Saccharomyces cerevisiae SK1 with 8 samples.

Results

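RNA polymerase III is the nuclear enzyme that makes tRNAs, the 5S ribosomal RNA and a few other short untranslated RNAs. Its specific subunits are encoded by 10 genes of the 6663 listed in these data, and these were taken by their systematic names: RPO31 (YOR116C), RET1 (YOR207C), RPC82 (YPR190C), RPC53 (YDL150W), RPC37 (YKR025W), RPC34 (YNR003C), RPC31 (YNL151C), RPC25 (YKL144C), RPC17 (YJL011C) and RPC11 (YDR045C). They were taken as the enzyme's specific subunits and not by a threshold on their values. All 10 passed the filter on low counts, with 1274 to 30499 reads per gene and library. None of 5 named polymerase III transcripts and no tRNA gene was found among the listed genes by RefSeq symbol or gene type. The 732 genes without a RefSeq match could not be checked this way. What follows concerns the mRNAs of the enzyme and not its products.

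The study asked what a truncated isoform of Pus1 does in budding yeast. Pus1 is an enzyme that converts uridines to pseudouridines in tRNAs and other RNAs. The data are RNA-seq counts of poly(A) RNA from 8 cultures of MATa/alpha diploids of the SK1 background, in 4 groups of 2 biological replicates. Every strain, controls included, carried the truncated isoform with a 3V5 tag under the pTetO7.1 promoter at his3 (altPus1-3V5, marked by HIS3). Every strain also carried pRNR2-TetR-Tup1 and pTetO7.1-TetR at ura3 (marked by URA3), which repress that promoter until anhydrotetracycline (aTC) is added. The WT groups kept the native PUS1 gene, and in the pus1Δ groups it was replaced by KanMX. Cells received aTC or its solvent DMSO when overnight cultures were diluted, and were collected after 3 h of exponential growth in YEPD at 30 °C. The labels do not say how many transformants stand behind each genotype.

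The polymerase III enzyme is built in modules. RPO31 and RET1, the largest and second-largest subunits, form the catalytic core. RPC82, RPC34 and RPC31 form a trimer needed for initiation, and RPC53 and RPC37 form a heterodimer related to TFIIF that acts in termination and reinitiation. RPC25 and RPC17 make up the stalk, and RPC11 is needed for cleavage of the nascent RNA. In growing yeast these genes are usually transcribed alongside genes for ribosome production.

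Many such genes carry 2 short promoter motifs, which is why the stretches around them are shown first. PAC, named for polymerases A and C (I and III), was searched as its core GATGAG. RRPE, an element of ribosomal RNA processing genes, was searched as its core AAAAATTT. Both strands were searched from 250 bases before to 50 bases after the first base of the start codon in the RefSeq S288C assembly R64. The sequenced strain was SK1, whose own promoters were not read here. Each stretch below is written 5′ to 3′ on the strand of its gene, with matches to either core in capitals (a PAC match on the other strand reads CTCATC).
RPO31, chrXV:544223-544269, minus strand: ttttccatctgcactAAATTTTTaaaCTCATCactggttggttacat
RET1, chrXV:733554-733601, minus strand: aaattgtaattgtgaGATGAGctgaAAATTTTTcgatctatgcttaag
RPC82, chrXVI:919143-919192, minus strand: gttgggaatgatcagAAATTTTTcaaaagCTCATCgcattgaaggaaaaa
RPC34, chrXIV:635338-635408, minus strand: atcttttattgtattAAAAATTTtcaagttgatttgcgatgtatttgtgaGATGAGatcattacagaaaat
RPC31, chrXIV:348577-348626, minus strand: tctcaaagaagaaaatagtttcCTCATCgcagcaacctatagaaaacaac
RPC53, chrIV:183093-183130, plus strand: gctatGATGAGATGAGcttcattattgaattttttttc
RPC37, chrXI:487685-487734, plus strand: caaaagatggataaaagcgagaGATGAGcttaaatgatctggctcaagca
RPC25, chrXI:176642-176690, minus strand: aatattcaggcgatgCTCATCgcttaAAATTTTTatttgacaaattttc
RPC11, chrIV:548476-548523, minus strand: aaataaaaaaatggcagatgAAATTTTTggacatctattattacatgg

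The PAC core was present near 8 of the 10 starts, against 20.4% of 6001 protein-coding genes. Since PAC takes its name from this polymerase among others, that share is not independent of the choice of genes. The RRPE core was present near 7 of the 10, against 14.1% of all. Both cores occurred near 6 of the 10, against 5.63% of all, and RPC53 held its RRPE core outside the stretch shown, 192 bases before the start. In RPO31, RET1, RPC82, RPC25 and RPC34 a PAC and an RRPE core began within 40 bases of each other, against 3.75% of all promoters. The bases between them numbered 3 in RPO31, 4 in RET1, 6 in RPC82, 5 in RPC25 and 27 in RPC34. RPC31 and RPC37 held PAC alone, RPC11 held RRPE alone, and RPC17 held neither. RPC53 carried 2 overlapping PAC cores, and RPC37 carried 3, of which 1 spanned the start codon and 1 lay 36 bases into the coding sequence.

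**Figure D1:**
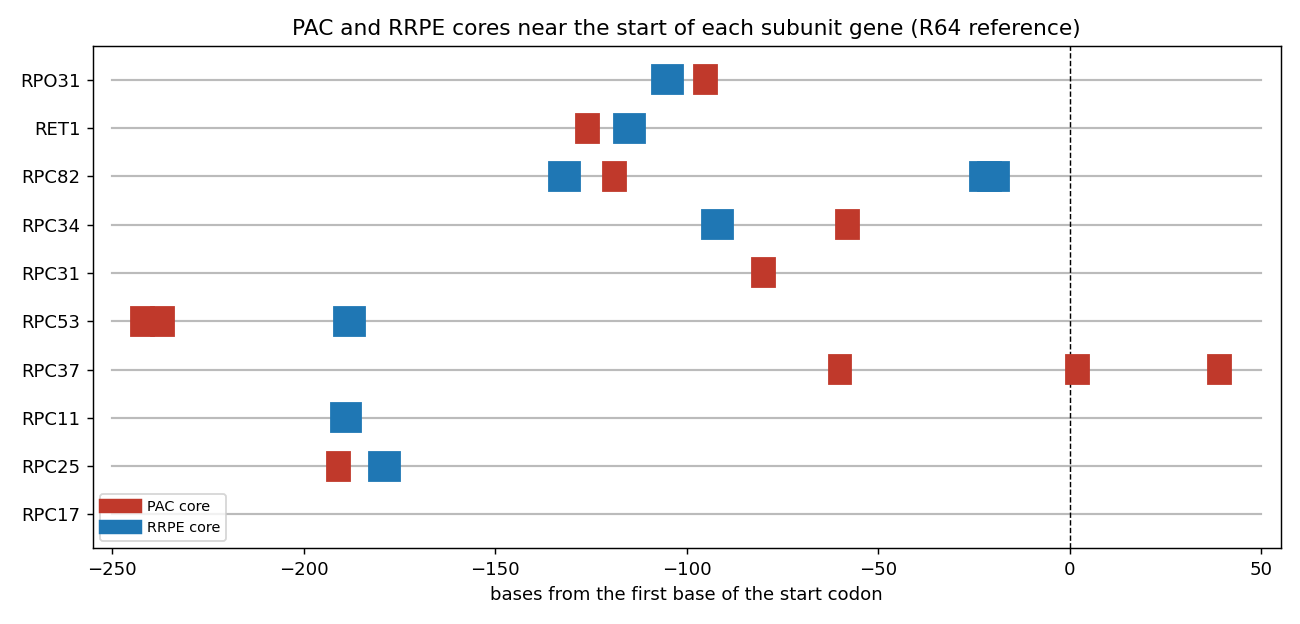
Positions of PAC (red) and RRPE (blue) cores along the R64 window of each subunit gene, in bases from the first base of the start codon (dashed line); each row is 1 gene. In 5 genes the cores lie close together upstream of the start, and the RPC17 row is empty.

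The cores were also counted near genes of the other polymerases. Of 8 genes for polymerase I subunits and its factor RRN3, 7 held PAC, which is named for this enzyme too, and 6 held RRPE. Of 7 genes for subunits that polymerase III shares with other polymerases, 2 held PAC and 6 held RRPE. Of 7 genes for polymerase II subunits, 1 held PAC and 2 held RRPE. Of the 6 genes of TFIIIC, the factor that binds promoters inside tRNA genes, 1 held PAC and 0 held RRPE. The Reb1 motif TTACCCG was near 0 of the 10 polymerase III starts and 7.08% of all. A match is a run of letters, and binding was not measured.

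Total counts ran from 51331492 to 61960514 per library, and levels are given below as CPM, each library's counts divided by its total after adjustment with edgeR's TMM factor. Reads listed under PUS1 followed the labels. They stood at 218 ± 3.67 CPM in WT with DMSO and 1100 ± 32.1 in WT with aTC (SD, n = 2). In pus1Δ they stood at 0.0518 ± 0.0192 CPM with DMSO and 838 ± 94.7 with aTC. Of 11 genes that diploid cells repress, 5 were under 1 CPM in every group and none was at 0. Their summed level was 38.4 to 38.7 CPM in pus1Δ and 32.9 to 36.2 in WT, and that of 8 meiotic genes 77.4 to 82.7 in pus1Δ and 71.2 to 80.1 in WT. Both sums were on the high side in pus1Δ, but for the meiotic genes the ranges of the genotypes overlapped. Among these markers, edgeR called IME2 (log2 fold change 0.52, edgeR adjusted p 0.0157) and HOP1 (0.30, edgeR adjusted p 0.0356) higher in pus1Δ than in WT with aTC. Of all genes 13.6% were called there. In that comparison 2 of the 8 meiotic genes were below 0, 1 of them with an unadjusted p under 0.05. IME2 and STE4 were also called higher in pus1Δ with aTC than in WT with DMSO (20.6% of all genes called). Averaged over treatments, IME2, RME1 and STE4 were called higher (21.2% of all genes called). These genes, which lie outside the rule for named genes, were chosen after their values were seen, and their part in the genotype differences below was not tested.

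One pair of replicates stood apart for these genes. In WT with aTC, replicate 1 was above replicate 2 for 10 of the 10 subunits, by 1.06-fold to 1.28-fold (median 1.14), whereas 50.3% of all 5932 tested genes were higher in replicate 1. In the other groups replicate 1 was the higher for 3 of 10 (pus1Δ with aTC), 6 of 10 (pus1Δ with DMSO) and 7 of 10 (WT with DMSO). For comparisons that use the WT aTC group, values or counts with a library left out are therefore also given.

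The catalytic core showed no change that passed the test in any comparison. RPO31, the largest subunit, stood at 563 and 484 CPM in WT with DMSO (replicates 1 and 2), 502 and 472 in WT with aTC, 481 and 499 in pus1Δ with DMSO, and 495 and 457 in pus1Δ with aTC. RET1, its partner in the active centre, stood at 362 and 333 CPM in WT with DMSO, 369 and 325 in WT with aTC, 318 and 325 in pus1Δ with DMSO, and 352 and 319 in pus1Δ with aTC. For both genes the replicates of a group lay about as far apart as the groups did. Among the comparisons made, the 1 separation was RET1 in pus1Δ with DMSO, where both libraries lay below both WT DMSO libraries.

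The initiation trimer was lowest in pus1Δ with aTC. RPC82 stood at 180 and 169 CPM in WT with DMSO, 185 and 167 in WT with aTC, 164 and 162 in pus1Δ with DMSO, and 159 and 153 in pus1Δ with aTC. All 4 pus1Δ libraries lay below all 4 WT libraries. RPC34, which contacts the initiation factor Brf1, stood at 49.7 and 47.7 CPM in WT with DMSO, 52.9 and 43.6 in WT with aTC, 44.2 and 43.5 in pus1Δ with DMSO, and 38.2 and 39.4 in pus1Δ with aTC. Its pus1Δ aTC libraries were the lowest of the 8, and its pus1Δ DMSO libraries lay level with WT aTC replicate 2. RPC31 stood at 96.3 and 95.3 CPM in WT with DMSO, 100 and 89.5 in WT with aTC, 80.0 and 79.9 in pus1Δ with DMSO, and 66.8 and 72.7 in pus1Δ with aTC. Its libraries were lower in pus1Δ than in WT with DMSO, and lower again in pus1Δ with aTC, with no overlap at either step. Such a lower position without overlap held for 29.4% and 28.7% of all genes. Neither step was called (edgeR adjusted p 0.132 and 0.126).

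The heterodimer genes were low in 1 group above all. RPC53 stood at 82.2 and 77.0 CPM in WT with DMSO, 85.1 and 71.6 in WT with aTC, 71.4 and 72.8 in pus1Δ with DMSO, and 54.2 and 60.3 in pus1Δ with aTC. RPC37 stood at 77.1 and 82.1 CPM in WT with DMSO, 89.9 and 70.4 in WT with aTC, 78.5 and 76.9 in pus1Δ with DMSO, and 61.5 and 63.4 in pus1Δ with aTC. For both, the 2 pus1Δ aTC libraries lay below the other 6, as they also did for RPC82, RPC34 and RPC31. The share of all genes with this pattern was not counted. For RPC37 the pus1Δ DMSO libraries fell inside the WT range. WT aTC replicate 1 was the highest library for both RPC53 and RPC37.

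RPC11, the cleavage subunit, was level across the study. It stood at 36.3 and 37.4 CPM in WT with DMSO, 36.5 and 33.9 in WT with aTC, 37.3 and 34.6 in pus1Δ with DMSO, and 34.7 and 35.1 in pus1Δ with aTC. The groups overlapped except that pus1Δ with aTC lay below WT with DMSO.

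The stalk genes had their lowest means in the pus1Δ groups. RPC25 stood at 58.9 and 54.3 CPM in WT with DMSO, 57.2 and 50.4 in WT with aTC, 50 and 48.5 in pus1Δ with DMSO, and 49.8 and 50.8 in pus1Δ with aTC. RPC17 stood at 27.3 and 30.7 CPM in WT with DMSO, 32.9 and 27.7 in WT with aTC, 24.4 and 25.3 in pus1Δ with DMSO, and 22.9 and 24.9 in pus1Δ with aTC. For RPC17 the 4 pus1Δ libraries lay below the 4 WT libraries, and its values with and without aTC overlapped in each genotype. For RPC25 the genotypes overlapped through WT aTC replicate 2.

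**Figure D2:**
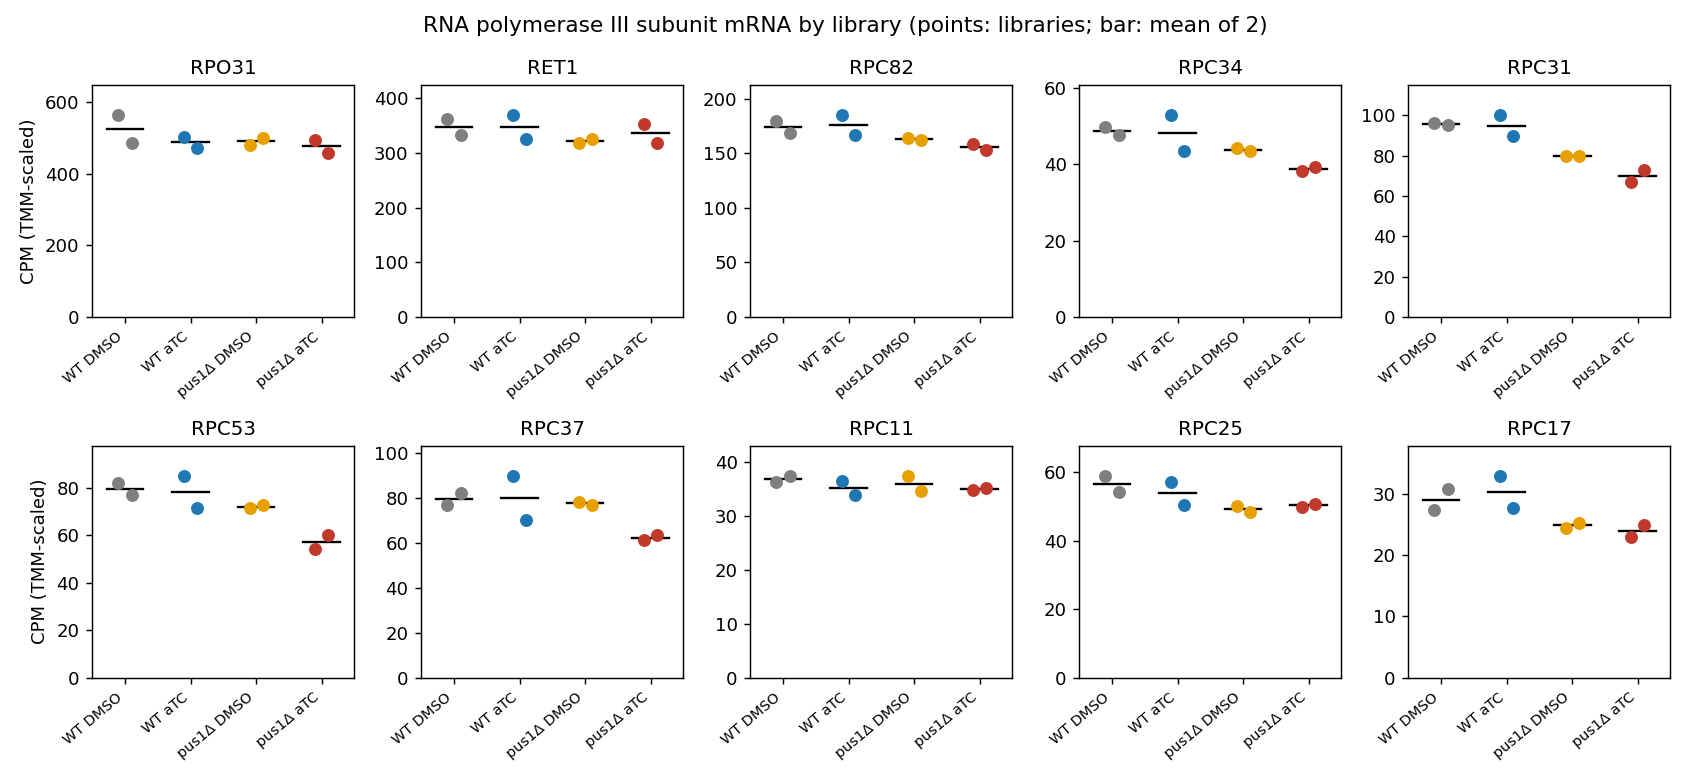
TMM-scaled CPM of the 10 subunit mRNAs in each library (points) with the mean of the 2 libraries of a group (bar), on axes that start at 0. RPC53 and RPC37 are low in pus1Δ with aTC, where they lie between 54.2 and 63.4 CPM, and RPO31, RET1 and RPC11 are level.

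With the truncated isoform induced in both strains, 5 subunit mRNAs were lower in pus1Δ than in WT. This comparison sets cells that have only the truncated isoform against cells that have it beside native Pus1. The 5 fell among 10 tested, in edgeR's quasi-likelihood test with Benjamini-Hochberg adjustment over all genes (called at an adjusted p under 0.05), and none rose. Over all 5932 genes tested, 13.6% were called, and 8.13% were called lower. DESeq2 also called 5 of the 10 (17.6% of all genes), and the unadjusted p was under 0.05 for 6 (32.5% of all genes). In bulk RNA such as this, fewer cells of a kind and less RNA per cell cannot be told apart.

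The called genes came from 3 modules. RPC53 fell by 0.45 on the log2 scale, a 1.37-fold difference (SE 0.0837, edgeR adjusted p 0.0152), and RPC37 of the same heterodimer fell by 0.36 (SE 0.0939, edgeR adjusted p 0.0308). In the initiation trimer RPC31 fell by 0.44, or 1.36-fold (SE 0.0664, edgeR adjusted p 0.0144), and RPC34 fell by 0.32 (SE 0.0834, edgeR adjusted p 0.0331). The stalk gene RPC17 fell by 0.34 (SE 0.0942, edgeR adjusted p 0.038). These changes were 1.24-fold to 1.37-fold in size. The third trimer gene, RPC82, had a log2 fold change of -0.18 and did not pass (edgeR adjusted p 0.0809). The values were -0.10 for RPC25, -0.05 for RET1, -0.03 for RPO31 and -0.01 for RPC11, none of which passed.

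Read against the rest of the transcriptome, the 10 had a median log2 fold change of -0.25, beside 0.005 over all genes. All 10 values were below 0 with TMM scaling, and with scaling to library totals RPO31, RET1 and RPC11 were above 0. The libraries of the 2 groups did not overlap for 6 subunits (RPC82 and the 5 called genes), all lower in pus1Δ, as did 27.9% of all genes. Without WT aTC replicate 1, the count of called subunits went from 5 to 1 (RPC31) and that of all genes from 808 to 63. Without WT aTC replicate 2 it was 6, with RPC82 added, and that of all genes was 1408 (23.6%). With replicate 1 of the pus1Δ aTC group left out it was 0 of 10, and 3 of all genes. It was 2 with replicate 2 of that group left out (732 of all genes) or with replicate 1 or 2 of pus1Δ with DMSO left out (332 and 220 of all genes). It was also 2 in a fit of these 2 groups alone (369 of all genes) and with scaling to library totals, where the count of all genes was 897.

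**Figure D3:**
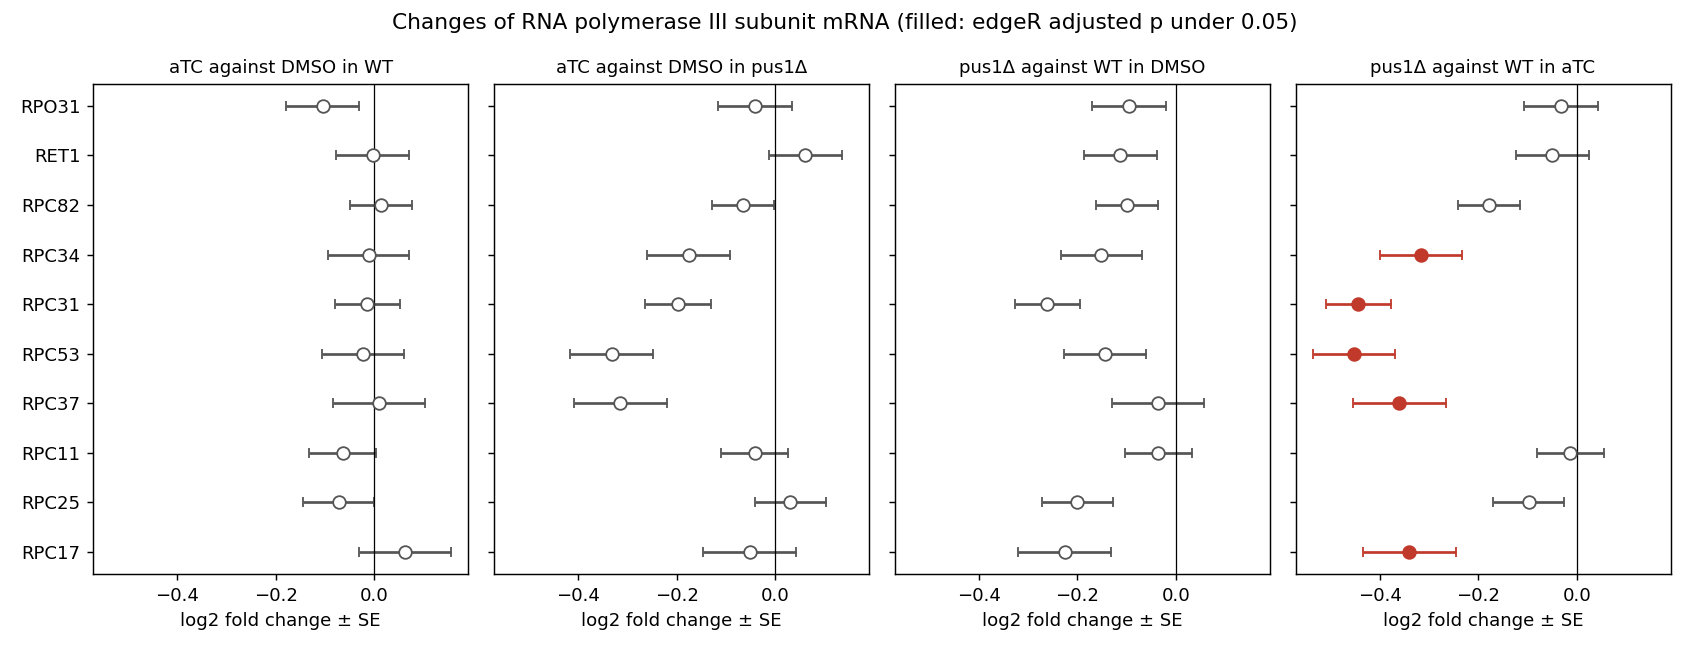
Log2 fold change of each subunit mRNA with its standard error (bars) in 4 comparisons, filled where the edgeR adjusted p was under 0.05. Calls appear only for pus1Δ against WT in aTC, for RPC34, RPC31, RPC53, RPC37 and RPC17.

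Without inducer, the loss of PUS1 gave no called change of a subunit. In DMSO none of the 10 was called by edgeR between pus1Δ and WT, where 0.219% of all genes were. The unadjusted p was under 0.05 for 3 (16.5% of all genes), and DESeq2 called 1 (1.84% of all genes). RPC31 had the largest log2 fold change of the 10 at -0.26 (SE 0.0662, edgeR adjusted p 0.132) and RPC17 was at -0.23. RPC37 was at -0.04, beside -0.36 in aTC, whereas RPC25 was at -0.20, beside -0.10 in aTC. The median was -0.13, beside 0.002 over all genes, and all 10 were below 0, but RPC37 and RPC11 were above 0 with scaling to library totals. The libraries did not overlap for 7 subunits, all lower in pus1Δ, and the same held for 29.4% of all genes. RPC31 was called by DESeq2, in a fit of these 2 groups alone (4.42% of all genes) and in the fits without WT aTC replicate 1 or 2 (1.78% and 1.58%).

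Adding the inducer gave no called change of a subunit in either strain. Every strain carried the inducible isoform, so aTC and the isoform it induces cannot be told apart here. In pus1Δ, 0 of 10 were called by edgeR between aTC and DMSO, where 0.506% of all genes were, with an unadjusted p under 0.05 for 3 (22.6% of all genes) and 2 calls by DESeq2 (6.8% of all genes). The 2 that DESeq2 called were the heterodimer genes. RPC53 had a log2 fold change of -0.33 (SE 0.0838, edgeR adjusted p 0.0794) and RPC37 one of -0.31 (SE 0.0939, edgeR adjusted p 0.104). RPC31 followed at -0.20 and RPC34 at -0.18. Both aTC libraries lay below both DMSO libraries for RPC82, RPC53, RPC37, RPC34 and RPC31, 5 of 10, beside 28.7% of all genes. A fit of these 2 groups alone called 3 subunits (RPC53, RPC37 and RPC31) and 11.9% of all genes. The fits without WT aTC replicate 1 or 2 called the same 3, and 9.17% and 9.21% of all genes.

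In WT, 0 of 10 were called by edgeR for aTC against DMSO, where 0.371% of all genes were. The unadjusted p was under 0.05 for 0 (4.99% of all genes), and DESeq2 called 0 (0.786% of all genes). The 10 values ran from -0.10 to 0.06 with a median of -0.01, beside 0.011 over all genes. Over the alternatives, which include leaving out each library, values ranged most widely for RPC37, from -0.17 to 0.17. RPC34 ran from -0.15 to 0.11, RPC53 from -0.15 to 0.09, RPC17 from -0.07 to 0.18 and RPO31 from -0.2 to 0.01. For 0 of 10 did both aTC libraries lie below both DMSO libraries, beside 13.3% of all genes, and for none did both lie above.

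Whether the 2 strains responded differently to aTC was tested as the difference between the responses. No subunit passed in edgeR or DESeq2, and 0.0169% of all genes did in edgeR and 0.016% in DESeq2. The unadjusted p was under 0.05 for 2, the heterodimer genes (7.23% of all genes). Their differences were -0.31 for RPC53 (SE 0.118) and -0.32 for RPC37 (SE 0.132), both with an edgeR adjusted p of 0.66. Without WT aTC replicate 2 both were called, with edgeR adjusted p values of 0.0361 and 0.0107, and so were 175 of all genes (2.94%), against 1 with all libraries. The heterodimer's response in pus1Δ was thus not shown to differ from that in WT with all 8 libraries.

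Averaged over treatments, pus1Δ was lower than WT for 5 subunits, and this comparison shares its libraries with those above. edgeR called 21.2% of all genes here, and 11.2% lower, and DESeq2 called 7 of the 10 (24.4% of all genes). RPC31 fell by 0.35 (SE 0.0469, edgeR adjusted p 0.00357), RPC53 by 0.30 (edgeR adjusted p 0.00979), RPC17 by 0.28 (edgeR adjusted p 0.0167), RPC34 by 0.23 (edgeR adjusted p 0.0204) and RPC82 by 0.14 (edgeR adjusted p 0.0468). RPC31 was called in all 13 alternatives run for it here. Of all genes 1260 were called. Leaving out replicate 1 of pus1Δ with aTC or with DMSO gave 2 subunits (557 and 284 of all genes), and leaving out replicate 2 of pus1Δ with DMSO gave 1 (99 of all genes). The count was 3 without WT DMSO replicate 1 or 2 (781 and 750 of all genes) and 3 with library totals, where 1619 of all genes were called. RPC37 (log2 fold change -0.20, edgeR adjusted p 0.0549) and RPC25 (-0.15, edgeR adjusted p 0.0585) did not pass. All 4 pus1Δ libraries lay below all 4 WT libraries for RPC82, RPC31 and RPC17, 3 of 10, beside 9.17% of all genes. Averaged over genotypes, aTC against DMSO gave 0 of 10 by edgeR and 0 by DESeq2, where edgeR called 1.31% of all genes and DESeq2 3.75%. There, 3 subunits had an unadjusted p under 0.05 (RPC53, RPC37 and RPC31), beside 18.9% of all genes. Without WT aTC replicate 1, RPC53, RPC37 and RPC34 were called, and so were 9.24% of all genes. For 0 of 10 did all 4 aTC libraries lie below all 4 DMSO libraries, beside 2.6% of all genes.

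Cells with only the truncated isoform were also compared with cells that had native PUS1 and no inducer (pus1Δ with aTC against WT with DMSO). In this comparison 4 subunits fell, and edgeR called 20.6% of all genes, and 10.3% of all genes as lower. RPC53 fell by 0.48 (SE 0.0838, edgeR adjusted p 0.00728), RPC31 by 0.46 (SE 0.0664, edgeR adjusted p 0.00406), RPC37 by 0.35 (edgeR adjusted p 0.0273) and RPC34 by 0.33 (edgeR adjusted p 0.0225). RPC17 was at -0.28 and did not pass in edgeR (edgeR adjusted p 0.0598). DESeq2 called 5 of the 10, RPC17 among them (22.7% of all genes). This contrast shares the pus1Δ aTC libraries with the one against WT in aTC, and no WT aTC library enters its difference. RPC31 was called in all 14 alternatives run for it here. The count of called subunits was 1 without pus1Δ aTC replicate 1, where that of all genes went from 1222 to 123. It was 2 without WT DMSO replicate 1 or 2 (339 and 497 of all genes) and 2 with scaling to library totals, where 1633 of all genes were called. All 10 values were below 0 with TMM scaling, and RET1 and RPC11 were above 0 with library totals. The libraries did not overlap for 8 subunits, beside 29.3% of all genes.

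Summed over modules, the heterodimer was low relative to the core in pus1Δ with aTC. The summed level of RPO31 and RET1 was 871.0 ± 75.9 CPM in WT with DMSO, 833.5 ± 52.4 in WT with aTC, 811.2 ± 18.1 in pus1Δ with DMSO and 811.5 ± 50.3 in pus1Δ with aTC (SD, n = 2 in each). The summed level of RPC53 and RPC37 was 159.2 ± 0.185 CPM in WT with DMSO, 158.5 ± 23.3 in WT with aTC, 149.8 ± 0.157 in pus1Δ with DMSO and 119.7 ± 5.73 in pus1Δ with aTC. As a ratio to the core within a library, which no scaling alters, the heterodimer stood at 0.184 ± 0.0158, 0.190 ± 0.0161, 0.185 ± 0.00431 and 0.148 ± 0.0162 in the same order. The trimer's ratio was 0.367 ± 0.0203, 0.383 ± 0.00853, 0.354 ± 0.00983 and 0.326 ± 0.021. The heterodimer and trimer ratios were lowest in pus1Δ with aTC. The stalk's ratio was 0.0986 ± 0.00773, 0.101 ± 0.00388, 0.0913 ± 0.00252 and 0.0918 ± 0.00833 in the same order. That of RPC11 was 0.0425 ± 0.0046, 0.0423 ± 0.000471, 0.0444 ± 0.00337 and 0.0431 ± 0.003. Neither the stalk's ratio nor that of RPC11 was lowest in pus1Δ with aTC. No test was made of these ratios.

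Per kilobase of counted length, the subunit mRNAs lay within a narrow band. Mean levels over the 8 libraries, in CPM per kilobase, ran from 113 for RPO31 (104 to 128) and 113 for RPC31 (88.3 to 133) down to 47.1 for RPC34 (40.1 to 55.4), a span of 2.4-fold. Between these came RPC11 at 107, RET1 at 97.9, RPC37 at 88.3, RPC82 at 85.1, RPC25 at 82.2, RPC53 at 56.6 and RPC17 at 55.6. Ranges of neighbours in this order overlapped everywhere except between RPC25 (76.0 to 92.2) and RPC53 (42.7 to 67.1). RPC17 (47.2 to 67.7), with no shared bases, also lay wholly below RPC25. The place of RPC53 below RPC25 depends on an overlap: 557 of its 1269 counted bases (43.9%) are shared with YDL151C. Reads there could not be assigned. Over the unshared length RPC53 stood at 101 CPM per kilobase (76.1 to 120). RPC34 shares 99 bases (10.4%) with YNR003W-A. For both genes the levels are uncertain to that extent, and a read from the opposite strand would have been counted.

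**Figure D4:**
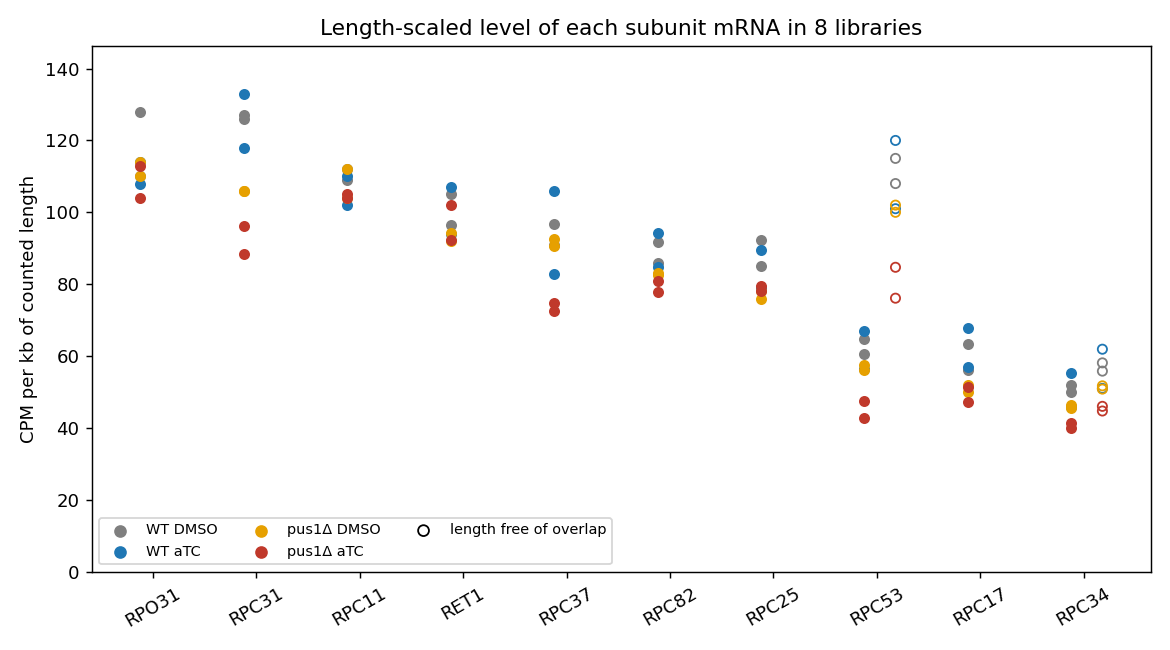
Length-scaled level of each subunit mRNA in the 8 libraries (points, coloured by group), in CPM per kilobase of counted length; open points use the length free of overlapping genes. RPC53 moves from a mean of 56.6 to 101 when its shared bases are left out.

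In the files' own coordinates, whose build the headers do not name, RPC53 lies at chromosome 4, 197994 to 199262 (plus strand), and RPC37 at chromosome 11, 500048 to 500896 (plus strand). RPC31 lies at chromosome 14, 339961 to 340716, and RPC34 at chromosome 14, 622981 to 623934 (both minus strand). RPC17 lies at chromosome 10, 393244 to 393729 (minus strand). The 5 genes called in aTC are therefore not neighbours.

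Across the 8 libraries the 10 mRNAs moved together to different degrees. All 45 pairs had a positive Pearson correlation of log2 CPM, with a median of 0.69 and a range of 0.16 to 0.96. These points share libraries and depth, and the values are a description. Against the mean of the other 9, RPC34 was highest at 0.995, followed by RPC82 at 0.94, RPC31 at 0.938 and RPC53 at 0.927. RPO31 was lowest at 0.502, with RPC11 at 0.529 and RET1 at 0.531. The mean profile, in log2 units from each gene's own average, was 0.122 and 0.081 in WT with DMSO, 0.178 and -0.022 in WT with aTC, -0.031 and -0.036 in pus1Δ with DMSO, and -0.157 and -0.136 in pus1Δ with aTC. WT aTC replicate 1 was thus the highest library and its replicate 2 lay at the level of pus1Δ with DMSO.

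Of 4933 other genes with a mean of at least 10 CPM, those most like this mean profile were DBP3 (r = 0.997), TRM1 (0.996), MAK5 (0.996), ESF1 (0.993) and RRP9 (0.992), over the 8 libraries. ESF1 stood at 187 and 180 CPM in WT with DMSO, 212 and 153 in WT with aTC, 147 and 152 in pus1Δ with DMSO, and 114 and 120 in pus1Δ with aTC. It was highest in WT aTC replicate 1 and lowest in pus1Δ with aTC, which follows from how these genes were picked. For pus1Δ against WT in aTC, its log2 fold change was -0.64, and those of the others ran from -0.40 to -0.36.

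The rest of the polymerase III machinery was read from lists of genes in the same 8 comparisons, first in pus1Δ against WT with aTC. Subunits shared with other polymerases fell in 3 of 7 cases, beside 8.13% of all genes, with a list median of -0.16. They were RPC19, found in polymerases I and III (fell by 0.30, edgeR adjusted p 0.0387), RPB5 (by 0.29, edgeR adjusted p 0.031) and RPO26 (by 0.19, edgeR adjusted p 0.0382). RPC19 averaged 24.0 ± 1.07 CPM in pus1Δ with aTC and 29.5 ± 3.54 in WT with aTC (SD, n = 2), and 285 of its bases overlap YNL114C. RPB10 and RPC10 did not pass there (-0.10 and -0.16), and RPC10 fell by 0.15 averaged over treatments (edgeR adjusted p 0.0283).

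The transcription factors that bring the enzyme to its genes showed no call. Of all genes 13.6% were called in aTC, and 8.13% lower, and lists this short can hold 0 calls at such shares. For TFIIIC 0 of 6 passed in each of the 8 comparisons by edgeR and by DESeq2, and the median in aTC was -0.04. There 0 of 6 had an unadjusted p under 0.05 (1 of 6, TFC8, for pus1Δ with aTC against WT with DMSO), and TFC8 and TFC7 were at 0.08 and -0.09. For TFIIIB, which positions the polymerase, 0 of 3 passed by edgeR or DESeq2. An unadjusted p under 0.05 was found for 0 of 3 in aTC (32.5% of all genes) and for 1 of 3, SPT15, in DMSO (16.5% of all genes). Averaged over treatments it was found for 1 of 3 (37.3% of all genes). In aTC, BRF1 was at -0.13 and BDP1 at -0.23 (SE 0.109), and neither passed. PZF1, the TFIIIA that acts at 5S genes, was at -0.07 and did not pass either test.

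Regulators and assembly factors fell in 3 of 19 cases in aTC, with a median of -0.11, and none rose. Of all genes 8.13% fell, and 13.6% were called in either direction. With 19 genes, a count of 3 is not far from the 8.13% that fell. BUD27, a prefoldin-like protein that aids assembly of the nuclear polymerases, fell by 0.58 (SE 0.114, edgeR adjusted p 0.0162). It averaged 42.3 ± 3.93 CPM in pus1Δ with aTC and 63.0 ± 13.1 in WT with aTC (SD, n = 2). The GPN-loop GTPases NPA3 and GPN3, which act in polymerase assembly and nuclear import, fell by 0.34 (edgeR adjusted p 0.0269) and 0.30 (edgeR adjusted p 0.0171). Against WT with DMSO, RBS1, a polymerase III assembly factor, fell by 0.40 (edgeR adjusted p 0.00995) and SCH9, a kinase that phosphorylates Maf1, fell by 0.32 (edgeR adjusted p 0.00782). In that comparison 4 of 19 fell, beside 10.3% of all genes. Averaged over treatments 6 of 19 were called lower in pus1Δ, beside 11.2% of all genes. FPT1, a protein found at tRNA genes, was at 0.16 in aTC and passed in no comparison by edgeR.

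MAF1, the repressor of polymerase III, passed in none of the 8 comparisons by edgeR. It averaged 45 ± 2.41 CPM in WT with DMSO, 46.4 ± 1.22 in WT with aTC, 43.6 ± 0.569 in pus1Δ with DMSO and 49.5 ± 1.85 in pus1Δ with aTC (SD, n = 2). Its largest log2 fold change was 0.18, for aTC against DMSO in pus1Δ (SE 0.0638, edgeR adjusted p 0.133). Maf1 is known to act through its phosphorylation and location, which RNA levels do not show.

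**Figure D5:**
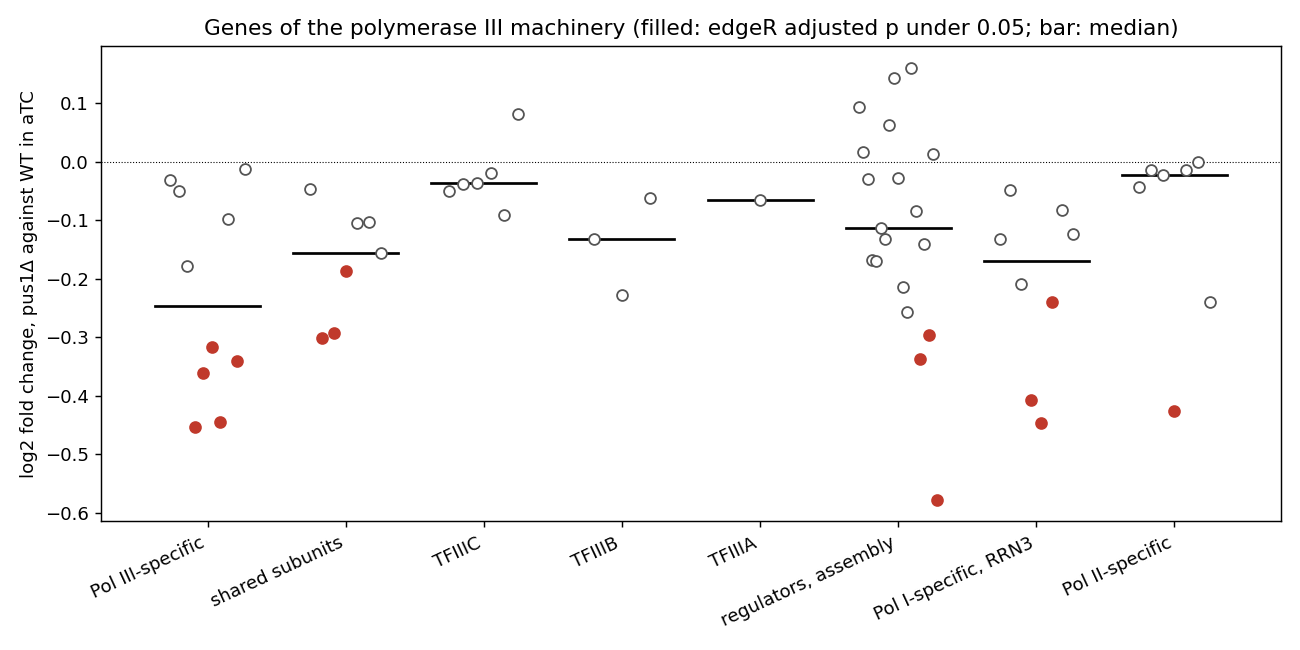
Log2 fold change of pus1Δ against WT in aTC for genes of the polymerase III machinery and for the specific subunits of polymerases I and II (points, filled where the edgeR adjusted p was under 0.05; bar, list median). The subunits of polymerase III have a median of -0.25, those of polymerase I -0.17 and those of polymerase II -0.02.

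The specific subunits of polymerases I and II were counted in the same way. For pus1Δ against WT in aTC, 3 of 8 polymerase I genes fell (RPA34, RPA43 and RPA14), beside 8.13% of all genes, with a list median of -0.17. RPA49 was also called lower against WT with DMSO, where it fell by 0.29 (edgeR adjusted p 0.0172). Of 7 polymerase II genes 1 fell, RPB4, with a list median of -0.02, a share near the background. No test of the difference between the lists was made. RPB4 and RPA14, counterparts of RPC17 in the stalks of their enzymes, fell by 0.43 (edgeR adjusted p 0.0275) and 0.24 (edgeR adjusted p 0.0361), beside 0.34 for RPC17. Their partners in the stalks were not alike: RPA43 was called lower, and RPC25 (-0.10, edgeR adjusted p 0.37) and RPB7 were not called.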

How the data were processed

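The deposited values were raw read counts per gene, 1 table per library. Per the file headers they came from featureCounts 2.0.1, over exons summed by transcript, from uniquely aligned reads. No option for strand or for reads touching several genes was set, so a read in an overlap is dropped and an antisense read is counted. Reads were aligned with STAR, per the submitters' processing notes (version not given in the sources used here). Libraries came from a directional kit and a NovaSeq X, per the labels' protocols. Symbols from RefSeq matched 5931 of 6663 genes, and 732 kept their systematic names. Of the 6663, 1464 overlap another.

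The counts were fitted in edgeR 4.0.16 (R 4.3.3; quasi-likelihood F test, TMM factors 0.963 to 1.05, default expression filter keeping 5932 genes and removing 731) with 1 mean per group over all 8 libraries, no block and 4 residual degrees of freedom. The biological coefficient of variation was 5.44%. Benjamini-Hochberg adjustment ran over all tested genes in each of 8 comparisons. Each standard error is the size of the log2 fold change over the root of its F statistic. Tests were first tried on simulated data. Alternatives were DESeq2 1.42.0, other size factors, library totals, no filter, a replicate block, a fit of the compared groups alone and leaving out each library. At these depths 1274 reads or more stood behind each member's value, so spread between cultures limits precision more than counting does. The labels record no molecular identifiers, so a read is not an independent molecule.

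The 10 members and the gene lists were chosen with earlier results of these data known. Genes of the polymerase III pathway lists were named if called in a pairwise comparison, plus up to 2 more per list by the largest change averaged over genotypes, and MAF1. Of the polymerase I and II lists the called genes were named. RefSeq R64 supplied the promoter letters. Its coordinates differ from those of the files and were not mixed with them.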

Additional observations from a re-analysis of the deposited data

How the results depend on the processing

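The calls rest on 2 libraries a group. The number of subunits called for pus1Δ against WT in aTC was 5, and it was 2 with scaling to library totals, 2 with only the groups compared and 0 to 6 when 1 library was left out. It was 4 for pus1Δ with aTC against WT with DMSO, 5 with DESeq2, 2 with library totals and 1 to 6 with 1 library left out. It was 5 for pus1Δ against WT averaged over treatments, 3 with library totals and 1 to 7 with 1 library left out. For aTC against DMSO in pus1Δ it was 0, and 2 with DESeq2, 3 with only the groups compared and 0 to 3 with 1 library left out. For pus1Δ against WT in DMSO it was 0, and 1 with DESeq2, 1 with only the groups compared and 0 to 1 with 1 library left out. It was 0 to 2 for the difference between responses and 0 to 3 for aTC averaged over genotypes with 1 library left out, against 0 in each. RPC31 was called in 13 of 14 alternatives for pus1Δ against WT in aTC, RPC53 in 12, and RPC37, RPC34 and RPC17 in 7 each. The cause of these shifts was not tested.

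With library totals the median over all genes lay furthest from its TMM value for pus1Δ with aTC against WT with DMSO, at 0.093 in place of 0.006 (log2). With them the uncalled values turned positive for RPO31, RET1 and RPC11 in aTC (0.03, 0.0123 and 0.0499), RPC37 and RPC11 in DMSO (0.0365 and 0.0367), RET1 and RPC11 for pus1Δ with aTC against WT with DMSO (0.0338 and 0.0099), and RPO31 and RPC11 averaged over treatments (0.0037 and 0.0433). With 1 library left out, other uncalled values crossed 0. For aTC in pus1Δ the ranges were -0.0123 to 0.1145 (RET1), -0.1302 to 0.0078 (RPC17) and -0.0958 to 0.0127 (RPC11). For pus1Δ against WT they were -0.1997 to 0.0117 (RPO31), -0.0852 to 0.0111 (RPC37) and -0.087 to 0.0188 (RPC11) in DMSO, -0.0899 to 0.0172 (RPO31), -0.1302 to 0.0445 (RET1) and -0.0565 to 0.0405 (RPC11) in aTC, and -0.0482 to 0.0034 (RPC11) averaged.

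Over all genes, the count called for pus1Δ against WT in aTC was 808, and 369 with only the groups compared. For aTC against DMSO in pus1Δ it was 30, and 375 with DESeq2 and 702 with only the groups compared. For pus1Δ against WT in DMSO it was 13, and 115, 261, 29 without the filter, 38 with library totals, 21 with other size factors and 28 with the block. For aTC averaged over genotypes it was 78, and 220 with DESeq2. With the replicate block the subunits called were 0 for each aTC comparison and for the difference, 0 for pus1Δ against WT in DMSO, 5 in aTC, 5 averaged and 4 for pus1Δ with aTC against WT with DMSO, the same counts as without it. The labels do not pair the numbers, and over all tested genes libraries with the same number deviated together with correlations of -0.156 to 0.143. The block was therefore not used. Over the 10 subunits alone these correlations ran from -0.504 to 0.572.
With the longer letters GCGATGAG, PAC was near 3 of the 10 starts (3.93% of all promoters), against 8 with the core (20.4% of all). With the longer letters AAAAATTTT, RRPE was near 5 of the 10 (6.98% of all), against 7 with the core (14.1% of all).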
